A study of Rattus norvegicus with 10 samples.

Results

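The 4 genes described here set how the cortex makes the inhibitory transmitter GABA and how neurons handle chloride, the ion that flows through GABA-A receptors. They are Gad1 and Gad2, which encode the GABA-synthesizing enzymes GAD67 and GAD65, Slc12a5, which encodes the chloride extruder KCC2, and Slc12a2, which encodes the chloride importer NKCC1. They were chosen by identifier and chromosome, and 4 of 4 were found among the 26404 features listed, with the expected chromosome in each case. All 4 passed the filter on low counts, which left 14400 features for testing.

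GABA is made from glutamate by the GAD enzymes, mainly in interneurons, and whether it inhibits or excites a neuron depends on that neuron's internal chloride. NKCC1 brings chloride into the cell and dominates in immature neurons, where GABA can depolarize. KCC2 removes chloride and rises as neurons mature. Maternal oxytocin is known for a transient shift of GABA action in the fetal rat brain around birth. The ratio of the transporters given below is a ratio of their transcripts in bulk cortex. Transporter protein, transporter activity and GABA action are not measured by it.

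RNA-seq libraries were made from the right side of the cerebral cortex of 10 fetuses of the Sprague Dawley strain, collected on embryonic day 21. In 5 of them the dam had received intravenous oxytocin at 100 mcg per kg 24 h earlier, and in the other 5 it had received an equal volume of saline. Each fetus came from a dam of its own, and the libraries were made from oligo-dT selected RNA. The animals are ordinary Sprague Dawley rats with no altered allele, and the labels used here do not give fetal sex. Library totals ran from 18555172 to 30404127 counts. Bulk cortex mixes all its cells, so fewer cells of a type and less RNA per cell cannot be told apart. The files give identifiers without symbols, so markers of interneurons, other cell types and neighbouring tissue were not analysed here, and their part in any result below was not tested.

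Over the 10 fetuses Gad1, Gad2 and Slc12a5 varied together, while no such relation was seen for Slc12a2. Over the 7 fetuses other than saline replicates 1 and 4 and oxytocin replicate 1, the coefficients of Gad2 were lower. There Pearson's r of Gad2 was 0.66 with Gad1 and 0.70 with Slc12a5 (exact permutation test, adjusted p = 0.167 for each). Differences between coefficients and any shared control of transcription were not tested. The sequences directly before the first RefSeq start of each gene are shown because of these relations. They are from RefSeq, build GRCr8, plus strand, at chr3:75777202-75777259 for Gad1, chr17:89671468-89671717 for Gad2, chr3:174115583-174115832 for Slc12a5 and chr18:53546083-53546262 for Slc12a2. Capitals mark matches, on either strand, to motifs of factors that start or tune transcription. The GC box was searched as GGGCGG. The TATA box was searched as TATAAA. The CCAAT box was searched as those letters alone, the E box as CACGTG, and the core bound by Egr family factors as GCGNGGGCG. No match overlapped another.
Gad1: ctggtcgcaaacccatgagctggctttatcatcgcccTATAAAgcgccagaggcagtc
Gad2: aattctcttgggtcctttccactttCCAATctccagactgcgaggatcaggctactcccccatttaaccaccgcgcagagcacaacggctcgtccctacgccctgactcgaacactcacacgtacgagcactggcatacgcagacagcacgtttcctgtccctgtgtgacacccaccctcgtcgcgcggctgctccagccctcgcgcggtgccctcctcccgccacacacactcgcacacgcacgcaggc
Slc12a5: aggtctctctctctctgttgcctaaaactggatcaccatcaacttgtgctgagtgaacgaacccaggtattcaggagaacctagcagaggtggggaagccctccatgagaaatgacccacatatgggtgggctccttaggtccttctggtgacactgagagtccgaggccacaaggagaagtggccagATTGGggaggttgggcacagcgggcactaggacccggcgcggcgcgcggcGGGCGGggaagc
Slc12a2: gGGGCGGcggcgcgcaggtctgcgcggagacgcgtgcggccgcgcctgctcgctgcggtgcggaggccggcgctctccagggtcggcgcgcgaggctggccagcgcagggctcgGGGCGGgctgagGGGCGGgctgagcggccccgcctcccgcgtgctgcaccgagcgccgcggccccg

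The windows differ in length, and that of Gad1 is the shortest, so motifs cannot be compared between all the genes. Gad1 held 1 TATA box, which 3.58% of 33469 rat promoters hold in a window of the same 58 bases. Gad2 and Slc12a5 each held 1 CCAAT box, found in 34.0% of promoters over 250 bases, and Slc12a5 also held 1 GC box, found in 30.5%. Slc12a2 held 3 GC boxes in 180 bases, where 27.6% of promoters hold at least 1. No E box or Egr core was matched in the 4 windows, and those motifs are found in 5.59% and 4.29% of promoters over 250 bases. The GC content was 83.9% for Slc12a2, 62.0% for Gad2, 59.2% for Slc12a5 and 55.2% for Gad1, against medians of 52.2%, 51.2%, 51.2% and 53.4% over all promoters in windows of the same length. A match is a run of letters and was not tested as a binding site.

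No difference between the groups was detected for any of the 4 genes. An adjusted p of 0.05 or less was reached by 0 of 4 in edgeR (quasi-likelihood test), and the background over all features was 0 of 14400, or 0.0%. An unadjusted p under 0.05 was reached by 514 features (3.57%) and by none of the 4 genes. Among all features, 0.701% had groups that did not overlap, and the groups overlapped for each of the 4. DESeq2 called 8 features, with 6025 left in its adjustment by independent filtering, and limma voom called 0 of 14400, and none of the 4 genes was called by either.

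**Figure D1:**
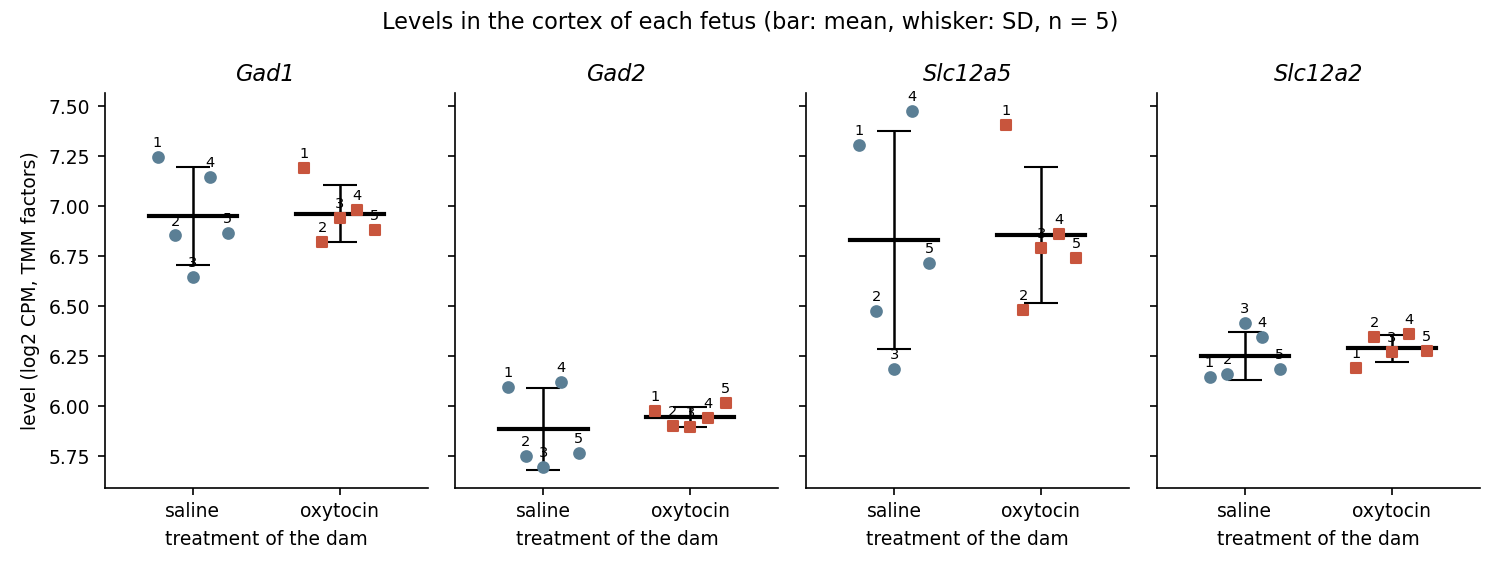
Level of each gene in each fetus in log2 CPM with TMM factors (vertical axis), for saline and oxytocin dams (horizontal axis); numbers are replicates, bars are means and whiskers are SD over 5 fetuses. The groups overlap for every gene, and Slc12a5 runs from 6.19 to 7.48 while Slc12a2 stays between 6.15 and 6.42.

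Gad1 encodes GAD67, the form of the enzyme found throughout the neuron (ENSRNOG00000000007, chromosome 3, 63479963 to 63519877, plus strand, 17 listed exon intervals). In the saline group its level was 47.7, 37.0, 31.4, 44.3 and 37.0 RPKM in replicates 1 to 5, where RPKM is the read count scaled to library total and per kilobase of listed length. In the oxytocin group it was 45.5, 35.0, 38.2, 39.2 and 36.3 RPKM. The 5 oxytocin fetuses lay inside the saline range. The means were 38.8 ± 4.07 RPKM in oxytocin fetuses and 39.5 ± 6.47 RPKM in saline fetuses (SD, n = 5 per group). The log2 fold change was 0.0019 ± 0.10 (SE), with a 95% interval from 0.856-fold to 1.17-fold (edgeR quasi-likelihood test, adjusted p = 0.9997). The sign of this estimate turned with scaling by library size alone.

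Gad2 encodes GAD65, the form found mainly at nerve terminals (ENSRNOG00000018200, chromosome 17, 90851697 to 90914893, plus strand, 16 listed exon intervals). Its saline levels were 34.9, 27.9, 26.5, 35.3 and 28.0 RPKM in replicates 1 to 5. Its oxytocin levels were 31.8, 30.0, 30.0, 30.9 and 32.3 RPKM. All 5 oxytocin values sat between the 3 low and the 2 high saline values. The means were 31.0 ± 1.04 RPKM in oxytocin fetuses and 30.5 ± 4.23 RPKM in saline fetuses (SD, n = 5 per group), and whether the spread differed between groups was not tested. The log2 fold change was 0.049 ± 0.082 (SE), with a 95% interval from 0.915-fold to 1.17-fold (edgeR, adjusted p = 0.9997).

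Slc12a5, the KCC2 gene, varied far more between fetuses than the other genes did (ENSRNOG00000018111, chromosome 3, 167610336 to 167647352, plus strand, 29 separate exon intervals). Its saline levels were 43.7, 25.0, 20.1, 48.9 and 29.3 RPKM in replicates 1 to 5. Its oxytocin levels were 46.4, 24.3, 30.3, 31.7 and 28.9 RPKM. The highest fetus was 2.43 times the lowest, and both were saline fetuses. Saline replicates 1 and 4 and oxytocin replicate 1 were high, with a gap of 0.45 on the log2 CPM scale between them and the other 7. The means were 32.3 ± 8.38 RPKM in oxytocin fetuses and 33.4 ± 12.3 RPKM in saline fetuses (SD, n = 5 per group). The log2 fold change was -0.023 ± 0.23 (SE), with a 95% interval from 0.698-fold to 1.39-fold (edgeR quasi-likelihood test, adjusted p = 0.9997). The plain difference of mean log2 CPM had the other sign, at 0.024, so no direction can be read.

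Slc12a2, the NKCC1 gene, was the steadiest (ENSRNOG00000015971, chromosome 18, 52104434 to 52172618, plus strand, 27 listed exon intervals). Its saline levels were 11.1, 11.4, 13.4, 12.7 and 11.5 RPKM in replicates 1 to 5. Its oxytocin levels were 11.3, 12.5, 12.0, 12.7 and 11.9 RPKM. The oxytocin fetuses again lay inside the saline range, and saline replicate 3, the lowest fetus for Slc12a5, was the highest for Slc12a2. The means were 12.1 ± 0.557 RPKM in oxytocin fetuses and 12.0 ± 0.983 RPKM in saline fetuses (SD, n = 5 per group). The log2 fold change was 0.035 ± 0.060 (SE), with a 95% interval from 0.937-fold to 1.12-fold (edgeR, adjusted p = 0.9997).

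The TMM factors that scale the libraries were 1.001 to 1.023 in the 5 saline libraries and 0.983 to 0.996 in the 5 oxytocin libraries, without overlap. With library size alone the log2 fold change was 0.024 for Gad2 and 0.0090 for Slc12a2, against 0.049 and 0.035 with TMM, and -0.023 for Gad1 and -0.046 for Slc12a5, and none of the 4 was called.

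The intervals state what these libraries could show. A change in Slc12a2 beyond 1.12-fold up, or in Gad1 or Gad2 beyond 1.17-fold up, lay outside the 95% interval, whereas for Slc12a5 changes from 0.698-fold to 1.39-fold lay inside it. The depth was ample for these genes, since each held 1022 to 5133 counts in every library, for a counting error of 1.40% to 3.13% of the level.

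Single fetuses moved the estimates. Leaving out saline replicate 3, the lowest in Slc12a5, Gad1 and Gad2, gave a log2 fold change of -0.16 for Slc12a5 and -0.069 for Gad1. In that fit it was 0.0030 for Gad2 and 0.078 for Slc12a2. Other fetuses moved the estimates up: Slc12a5 was at 0.16 without saline replicate 4, and Gad1 at 0.081 without saline replicate 1. Saline replicates 1 and 4 and oxytocin replicate 1, the ones high in Slc12a5, also stood apart in the first principal component of all other tested features, which held 28.2% of the variance. Their scores were 18.8, 21.9 and 20.9, and the other 7 fetuses lay from -18.7 to -1.38. Their library totals were 19689446, 18700052 and 30404127 counts, the last being the deepest library of the series. The labels give no difference between these fetuses and the rest, and the cause was not tested.

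The estimates of all 4 genes were higher without these 3 fetuses. With 4 oxytocin and 3 saline fetuses left, the log2 fold change was 0.25 ± 0.11 for Slc12a5, 0.20 ± 0.055 for Gad2, 0.11 ± 0.067 for Gad1 and 0.054 ± 0.068 for Slc12a2 (SE). None of the 4 was called by edgeR, whose adjusted p ran from 0.868 for Gad2 to 0.980 for Slc12a2. For Gad2 the unadjusted p was 0.0033 in this edgeR fit, and its 95% interval, 0.081 to 0.32 on the log2 scale, did not include 0 and reached past the upper bound of the fit with all fetuses (0.23). The saline fetuses left out, replicates 1 and 4, were also the highest of the series in Gad2, so leaving them out lowers the saline mean of that gene. In the same fit 759 of 14487 features had an unadjusted p under 0.05. With all 10 libraries and the component as a covariate, the log2 fold change of Slc12a5 was 0.10 ± 0.059 (SE), and its interval narrowed to -0.027 to 0.23 on the log2 scale (adjusted p = 0.853 in edgeR's test). The component was taken from the other features, of which 305 had r above 0.9 with Slc12a5. The narrower interval is therefore not read as added precision. Both settings, leaving out the 3 fetuses and the covariate, were chosen after the levels had been seen.

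**Figure D2:**
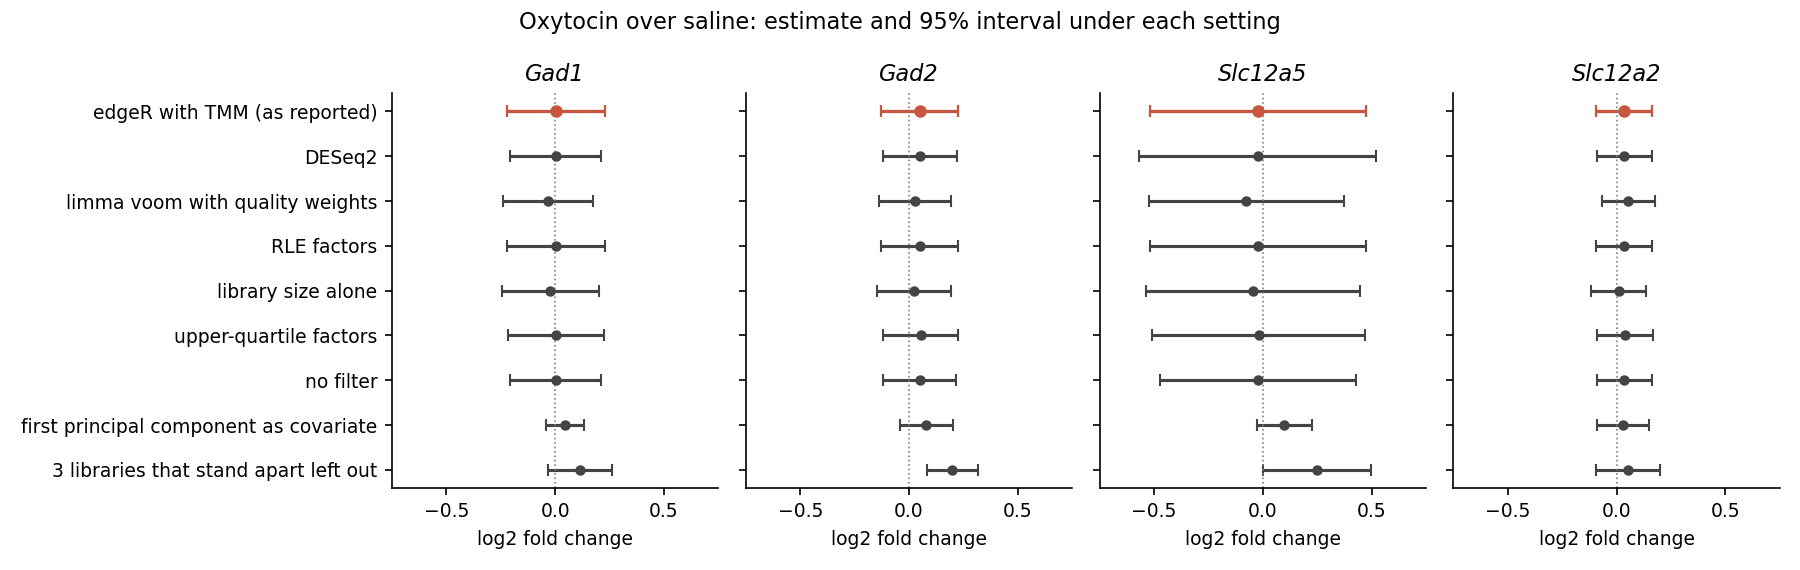
Log2 fold change of oxytocin over saline (horizontal axis) with its 95% interval for each gene under each setting (vertical axis); the upper estimate of each panel is the reported one and the others are alternatives. The Slc12a5 interval is the widest, from -0.52 to 0.47 as reported, and is narrower with the first principal component as covariate, from -0.027 to 0.23. That component was taken from features many of which follow Slc12a5, so the narrowing is not read as added precision.

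The ratio of Slc12a5 to Slc12a2 in each fetus does not depend on scaling between libraries. In the saline group there were 2.24, 1.24, 0.853, 2.19 and 1.45 counts of Slc12a5 for each count of Slc12a2 in replicates 1 to 5. In the oxytocin group there were 2.33, 1.10, 1.43, 1.41 and 1.38. In counts not scaled to length, Slc12a5 exceeded Slc12a2 in 9 of 10 fetuses, saline replicate 3 being the exception. The fetuses at the extremes differed by 2.73 times. The listed length is 3635 bases for Slc12a5 and 6401 for Slc12a2, so counts do not show which transcript is more abundant. Per kilobase, Slc12a5 was above Slc12a2 in 10 of 10 fetuses. In saline replicate 3 Slc12a5 held 46.0% of the counts of the pair (exact Clopper-Pearson 95% interval 44.3% to 47.8%). In oxytocin replicate 1 it held 69.9% (68.9% to 71.0%). These intervals cover counting error only, and the differences between fetuses were far larger.

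No difference by treatment was detected in this ratio of transcript counts. Its mean was 1.53 ± 0.465 in oxytocin fetuses and 1.59 ± 0.605 in saline fetuses (SD, n = 5 per group). The difference of mean log2 ratios was -0.015 (p = 0.968 by an exact permutation test, two-sided, and also 0.968 once adjusted over the 2 ratios tested), in a design whose smallest possible p is 0.0079. The exact rank-sum interval of the shift, with 96.8% coverage, ran from 0.617-fold to 1.68-fold, and shifts inside those bounds are compatible with these data. The sign of the difference was not stable: leaving out saline replicate 3 gave -0.22 and leaving out saline replicate 4 gave 0.12 on the log2 scale. Without the 3 fetuses that stood apart the difference was 0.20 (exact two-sided permutation test, p = 0.514).

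**Figure D3:**
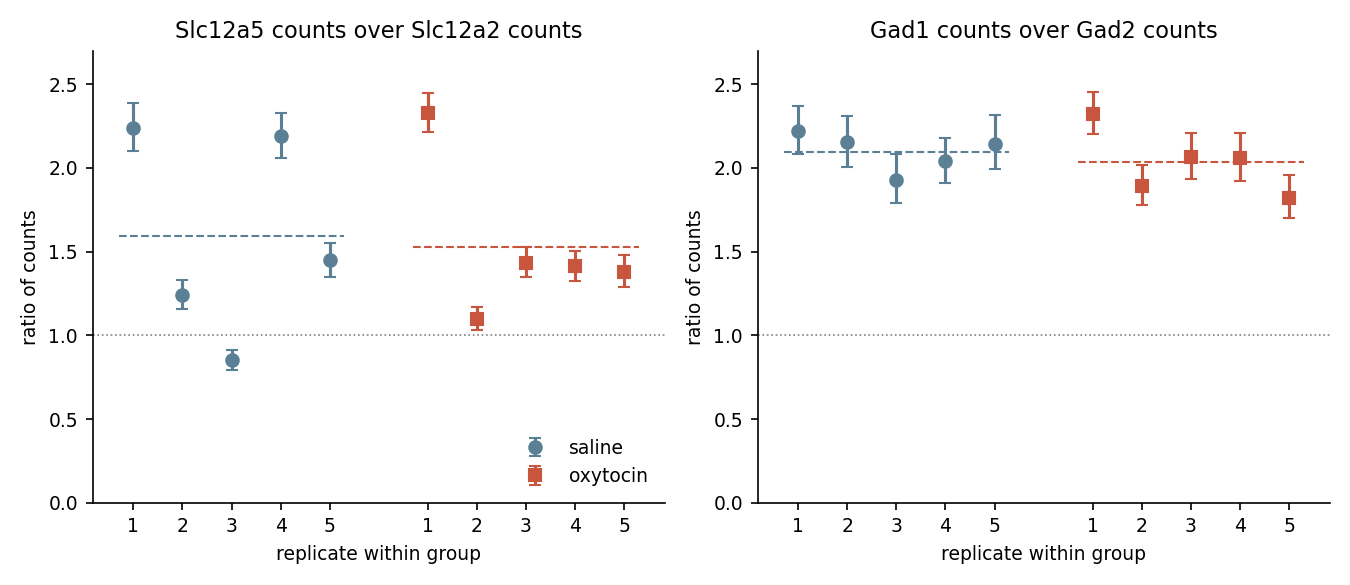
Ratio of counts in each fetus (vertical axis) by replicate within group (horizontal axis), for Slc12a5 over Slc12a2 at left and Gad1 over Gad2 at right; whiskers are 95% counting intervals and dashed lines are group means. The transporter ratio runs from 0.853 to 2.33 in both groups together, and the enzyme ratio from 1.82 to 2.32.

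The ratio of the GAD enzymes was far steadier. Gad1 counts per Gad2 count were 2.22, 2.15, 1.93, 2.04 and 2.15 in saline replicates 1 to 5. After oxytocin they were 2.32, 1.90, 2.07, 2.06 and 1.82. The highest and the lowest fetus were both oxytocin fetuses and differed by 1.27 times. The means were 2.03 ± 0.194 in oxytocin fetuses and 2.10 ± 0.114 in saline fetuses (SD, n = 5 per group). The difference of mean log2 ratios was -0.048 (p = 0.516 by the same exact permutation test, and 0.968 once adjusted over the 2 ratios). The rank-sum interval of the shift ran from 0.850-fold to 1.08-fold.

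Per kilobase of listed length, Gad1 was the highest of the 4 genes and Slc12a2 the lowest. Over all 10 fetuses the levels were 39.2 ± 5.11 RPKM for Gad1, 32.9 ± 9.97 for Slc12a5, 30.8 ± 2.91 for Gad2 and 12.1 ± 0.754 for Slc12a2 (SD, n = 10). Gad1 was above Gad2 in 10 of 10 fetuses, and each of the other genes was above Slc12a2 in 10 of 10. The place of Slc12a5 was not fixed: Gad1 was above it in 8 of 10 fetuses and Gad2 was above it in 4 of 10. Differences in level between genes were not tested. Among the 14400 tested features, 18.2% had a higher mean RPKM than Gad1, 21.8% than Slc12a5, 23.5% than Gad2 and 48.6% than Slc12a2.

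The listed gene models differ in their 3′ ends. The last listed interval spans 2798 bases for Slc12a2 and 1411 for Gad1, but only 92 for Slc12a5 and 308 for Gad2, and the counts refer to the listed intervals. Whether this affects the order of levels was not tested. Per kilobase, the ratio of Slc12a5 to Slc12a2 ran from 1.50 to 4.10 over the fetuses. No other listed feature overlaps any of the 4 genes on either strand, so reads shared with a listed neighbour do not affect them.

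Slc12a5 was among the most variable of the well-expressed genes. Its within-group SD, pooled over the groups, was 0.46 on the log2 CPM scale, and 14th in rank among the 3879 features at least as abundant as Gad2, and the median SD of those features was 0.084. Gad1 had an SD of 0.20 and 4.25% of those features exceeded it. Gad2 had 0.15, which 11.3% exceeded, and Slc12a2 had 0.099, which 35.3% exceeded.

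Gad1 and Slc12a5 followed each other closely from fetus to fetus. Over the 10 fetuses Pearson's r of their log2 CPM was 0.96 and Spearman's rho was 0.94 (permutation tests with 100000 resamples, p = 8.0e-05 and p = 0.00017, adjusted p = 0.00048 and p = 0.00102 over 6 pairs of genes). Without the fetuses farthest from the median of Gad1, saline replicate 1 and oxytocin replicate 1, r was 0.97. Since 3 fetuses stood apart in Slc12a5, r was also taken over the other 7, where it was 0.95 and rho was 0.96 (exact permutation tests, p = 0.00040 and p = 0.0028; adjusted p = 0.0024 and 0.0167). The relation was therefore present inside the 7 as well. With deviations from the group means in place of levels, r over the 10 was again 0.96.

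Gad2 followed both with lower coefficients, and the difference between coefficients was not tested. Its r was 0.82 with Gad1 and 0.84 with Slc12a5 over the 10 fetuses (permutation test, p = 0.0043 and p = 0.0032, adjusted p = 0.0087 for each over 6 pairs), and rho was 0.79 and 0.85 (permutation test, p = 0.0087 and p = 0.0030; adjusted p = 0.0174 and 0.0090). Leaving out the 2 fetuses farthest from the median of the first gene gave r of 0.82 with Gad1 and 0.68 with Slc12a5. Over the 7 fetuses r was 0.66 and 0.70 and did not pass 0.05 (exact permutation test, p = 0.0835 and p = 0.0770, adjusted p = 0.167 for each), with fewer fetuses. Scaling by library size alone gave Gad2 a rho of 0.65 with Gad1 over the 10 fetuses (permutation test, p = 0.0486, adjusted p = 0.097). With that scaling r of the pair was 0.82 (adjusted permutation p = 0.0084), and rho with Slc12a5 was 0.76 (adjusted permutation p = 0.046).

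Slc12a2 showed no such relation. Its r was -0.47 with Gad1, -0.094 with Gad2 and -0.35 with Slc12a5 (permutation test, p = 0.169, p = 0.793 and p = 0.316; adjusted p = 0.254, 0.793 and 0.380), with rho of -0.33, -0.067 and -0.10 (permutation test, p = 0.349, p = 0.866 and p = 0.785; adjusted p = 0.523, 0.866 and 0.866). Leaving out the 2 farthest fetuses gave r of -0.088, 0.082 and -0.56. The spread of the transporter ratio between fetuses was therefore carried mainly by Slc12a5, whose levels covered 1.29 on the log2 CPM scale against 0.27 for Slc12a2.

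**Figure D4:**
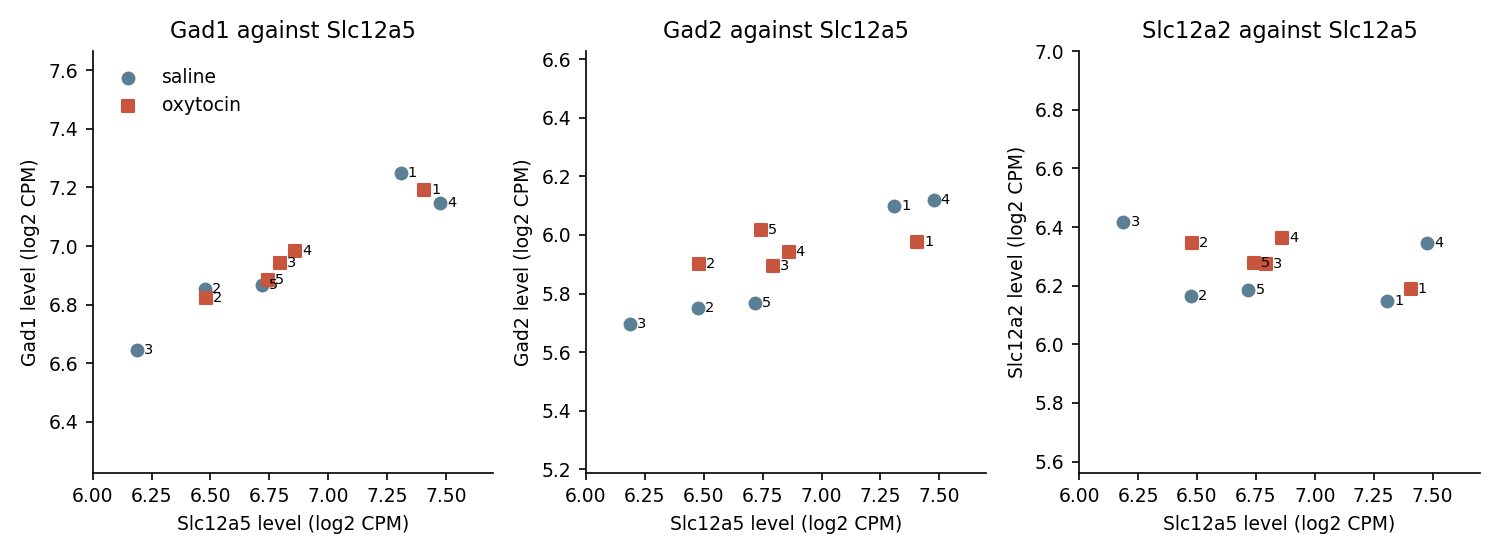
Levels of Gad1, Gad2 and Slc12a2 (vertical axes, log2 CPM, equal spans) against the level of Slc12a5 (horizontal axis, log2 CPM) in each fetus; numbers are replicates within each group. Gad1 rises with Slc12a5 (r = 0.96, n = 10), Gad2 less closely (r = 0.84), and Slc12a2 shows no rise (r = -0.35).

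Many other features shared the pattern of Gad1 and Slc12a5. Of 14396 other tested features, 305 had r above 0.9 with Slc12a5 and 240 with Gad1, but only 19 with Gad2 and 25 with Slc12a2. In the opposite direction, 88 had r below -0.9 with Slc12a5, 83 with Gad1, 7 with Gad2 and 7 with Slc12a2. The feature most like Slc12a5 was ENSRNOG00000011156 (r = 0.994 over the 10 fetuses, 0.982 over the 7), and the one most like Gad1 was ENSRNOG00000025235 (r = 0.986 and 0.988). The highest r was 0.956 for Gad2 and 0.947 for Slc12a2. Each is the largest of 14396 values over the same 10 libraries and is given as a description. None of these 4 features passed the test of oxytocin against saline (edgeR, adjusted p = 0.9997 for each).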

How the data were processed

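Counts per gene for 10 libraries were taken as deposited by the authors, 1 file per library and not normalized. Per the file headers the files also give CPM and RPKM. The deposited CPM is the count scaled to the library's summed counts, and the deposited RPKM is that value divided by the listed length in kilobases. The submitters' processing notes name bcl2fastq, STAR 2.0.4b, Subread, featureCounts and the build Rnor_5.0, and coordinates of the 4 genes are as the files list them. Strand handling, the annotation release and any filters are not given in the sources used here. Counting without strand would merge unlisted antisense reads with a gene.

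Groups came from the treatment labels, and replicate numbers follow accession order only. Features were filtered with filterByExpr, scaled with TMM factors (0.983 to 1.02) and tested over all 10 libraries with edgeR 4.0.16's quasi-likelihood test (R 4.3.3), with Benjamini-Hochberg adjustment over the 14400 features. Levels in log2 CPM use a prior count of 2. DESeq2 1.42.0 and limma 3.58.1 were alternatives, besides other scalings, no filter and leaving out each library. Tested on simulated data of this comparison, with 200 features changed among 14315 at 1.3-fold and among 14320 at 2-fold, the edgeR test recovered 47.0% with 3.09% false calls and 90.5% with 5.24% false calls. DESeq2 made 15.1% and 14.9% false calls on the same counts. The simulated features varied independently of each other, so the component shared by many features in the real libraries was absent. The changed features were drawn at random, so these rates are averages and were not taken for the 4 genes. Libraries of a group differed by at least 4.08 chi-square per degree of freedom, so each counted as 1 replicate.

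The genes named are the 4 members and, for the features most like them, those with the highest r. Members, lists and rules were chosen with earlier results of these data known. Planned lists of other GABA pathway genes and of cell type markers were not analysed here, because no table at hand pairs the identifiers with symbols; the symbols of the 4 genes came with their identifiers. Promoters were matched by symbol for 4 of 4.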

Additional observations from a re-analysis of the deposited data

How the results depend on the processing

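The adjusted p of each of the 4 genes stayed above 0.05 under all 8 alternatives that kept or reweighted the libraries or left out the 3 that stood apart, and in all 10 fits without a library. The count of features past 0.05 was 0 in the reported fit, 8 with DESeq2 and 1 with the first principal component as covariate, and 0 without each library. Without each library the log2 fold change ran from -0.069 to 0.081 for Gad1, 0.0030 to 0.11 for Gad2, -0.19 to 0.16 for Slc12a5 and 0.0090 to 0.078 for Slc12a2; for Gad1 and for Slc12a5 the sign turned in 5 of 10. The log2 ratio difference ran from -0.22 to 0.13 for Slc12a5 to Slc12a2 and from -0.098 to -0.010 for Gad1 to Gad2. The sign of Gad1 also turned with limma voom (-0.034) and with library size alone (-0.023). That of Slc12a5 turned with the principal component as covariate (0.0995) and without the 3 libraries (0.248), where the transporter ratio difference was 0.199. Without those 3, r fell to 0.66 for Gad1 with Gad2 (adjusted exact permutation p = 0.167) and to 0.70 for Gad2 with Slc12a5 (adjusted exact permutation p = 0.167), over fewer libraries, and was 0.13 for Gad2 with Slc12a2. The cause was not tested for the others. The principal-component settings were chosen after seeing the data. Among 12 checks for a single library apart from its group, 0 passed Dixon's critical value of 0.71; saline replicates 1 and 4 are high together, which such a check cannot show. The pathway lists could not be tried without a filter, since they were not analysed. No paired analysis was possible because replicate numbers follow accession order and the labels pair no fetuses.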
